A study of Mus musculus with 6 samples.

Results

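The Notch receptors Notch1, Notch2 and Notch3, the ligands Dll1, Dll3, Jag1 and Jag2, and the fringe enzymes Mfng, Lfng and Rfng were followed in the cortex of Lats1/Lats2 double knock-out mouse embryos. These 10 genes were chosen by name, from rows of the deposited table with exactly 1 gene symbol, and a gene with several rows was represented by its brightest, judged by the mean of the 6 arrays. All 10 had a row, out of 22180 genes with such a row, and all 10 passed the filter on dim genes that left 16724 genes to test. The study profiled dissected cortex at stage E12.5 on Affymetrix whole-transcript arrays, with 3 embryos of genotype Lats1F/F;Lats2F/F;Nestin-Cre, called DKO here, and 3 control embryos. Both Lats genes carry loxP-flanked alleles in the DKO embryos, and the nestin-driven Cre recombines them in neural progenitors and the cells these give rise to, while blood vessels, blood and meninges arise from other lineages. The alleles of the controls, and whether they carried Cre, are not given in the sources used here. Each sample came from a separate embryo per the labels, nothing was pooled, and the embryos were untreated.

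Notch signalling passes between touching cells. Delta-like and Jagged ligands on 1 cell bind Notch receptors on its neighbour, the receptor is cut, and its intracellular part joins the DNA-binding protein RBPJ to switch on target genes such as those of the Hes and Hey families. Dll3 is the divergent ligand that does not activate receptors on neighbouring cells and acts inside the cell that makes it. Fringe enzymes are glycosyltransferases of the Golgi that extend the O-fucose sugars on the extracellular part of Notch and so change how well it responds to Delta-like and to Jagged ligands. In the embryonic cortex, newborn neurons and committed progenitors present Delta-like ligands, and Notch activity in the neighbouring apical progenitors holds them in the progenitor state.

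Of the 10 genes, 1 changed between genotypes. Mfng fell in DKO cortex, by 0.45 on the log2 scale, while its relative Lfng had a higher value on every DKO array than on any control array without passing the test over all genes. The Delta-like ligands Dll1 and Dll3 lay lower on every DKO array, also without passing the test, and the receptors Notch1 and Notch2 and the Jagged ligands overlapped between the groups. The threshold was a limma adjusted p under 0.05 over all 16724 genes, which 1.72% of the genes passed (0.359% fell and 1.36% rose). At an unadjusted p under 0.05 stood 4 of the 10, Mfng, Dll1 and Dll3 with lower and Lfng with higher values, where 15.6% of all genes did. The count of 1 among 10 genes is given as a description beside that background, and the values of each gene follow.

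Sequence just upstream of the start of transcription is shown for Dll1 and Dll3, whose values were lower together, and for Lfng, whose values ran the other way. The reference table of RefSeq promoters (assembly GRCm38.p6) held 9 of the 10 genes, and Mfng was the gene without an entry. Each line gives the 250 bases before the start, read 5′ to 3′ on the strand of the gene, and capitals mark matches on either strand to TGGGAA (the core that RBPJ binds), GGAATG (the core that the TEAD partners of YAP and TAZ bind) or CANNTG (the E-box, bound by basic helix-loop-helix factors that include the proneural proteins). Dll1 has 2 annotated starts, and the upstream one, on the minus strand at chr17:15376933-15377182, is shown. Dll3 is on the minus strand at chr7:28301786-28302035 and Lfng on the plus strand at chr5:140607091-140607340.
Dll1: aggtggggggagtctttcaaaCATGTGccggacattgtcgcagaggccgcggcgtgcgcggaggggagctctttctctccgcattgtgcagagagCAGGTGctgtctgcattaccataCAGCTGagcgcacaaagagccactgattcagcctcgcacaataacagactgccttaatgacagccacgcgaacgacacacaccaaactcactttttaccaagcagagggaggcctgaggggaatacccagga
Dll3: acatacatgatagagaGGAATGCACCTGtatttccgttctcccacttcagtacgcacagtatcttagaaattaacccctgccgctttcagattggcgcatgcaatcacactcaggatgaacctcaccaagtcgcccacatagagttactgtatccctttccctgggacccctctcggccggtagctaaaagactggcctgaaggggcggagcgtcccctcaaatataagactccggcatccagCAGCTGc
Lfng: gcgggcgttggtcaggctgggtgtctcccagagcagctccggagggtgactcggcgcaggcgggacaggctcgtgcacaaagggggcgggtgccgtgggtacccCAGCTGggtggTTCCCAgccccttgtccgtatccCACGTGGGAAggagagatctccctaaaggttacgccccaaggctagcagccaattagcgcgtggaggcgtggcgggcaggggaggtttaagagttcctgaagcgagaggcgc

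The Lfng stretch held 2 RBPJ cores, of which the one at 108 to 103 bases before the start overlaps an E-box at 112 to 107 bases. No other promoter of the 10 genes in the table held that core, which 21.6% of all 32851 promoters in the table hold in a window of the same length. The Dll1 stretch shown held 3 E-boxes, and the one before the other annotated start of Dll1, at chr17:15375824-15376073, held 1. The Dll3 and Lfng stretches held 2 each, so E-boxes did not set Lfng apart. At least 1 E-box was found in 66.2% of all promoters. Dll3 also held 1 TEAD core, next to an E-box, and Notch1 held 2 TEAD cores, against 12.6% of all promoters with at least 1. No match to any of the 3 motifs was found in the windows of Notch2, Notch3 and Jag2, and Jag1 and Rfng held 1 E-box each. The shares count promoters with at least 1 match, so they give no baseline for the number of matches in 1 promoter. GC content was 52.0% to 87.2% in the windows of these genes, beside a median of 52.4% over all promoters. The motif hits are matches of letters in a short window and were not tested for binding.

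Before the results, the arrays were checked against their labels. Lats1 was lower in DKO, changing by -0.91 ± 0.14 (SE) on the log2 scale (limma adjusted p 0.0189), and Lats2 differed by 0.24 ± 0.10 (adjusted p 0.285). The positions of the probes relative to the deleted exons are not given in the sources used here, for either gene. Lats2, although a target of the knock-out, was higher on every DKO array than on any control array, with a gap of 0.02. The label check thus rests on Lats1 alone and was not borne out by Lats2. With a single array removed, Lats1 kept its call in 2 of 6 fits; the adjusted p was 0.0805 without control 1 and 0.0570 without control 3, and it was 0.0864 when DKO 1 and 0.0814 when DKO 3 was removed. Cortical markers, of which Lhx2 and Emx2 were picked after their values were seen, were present on all arrays: the log2 value of Lhx2 lay between 10.67 and 10.80 in DKO and between 10.87 and 10.94 in control, and that of Emx2 between 8.92 and 9.03 in DKO and between 9.14 and 9.20 in control. Array DKO 2 stood apart in markers of other lineages. The mean log2 value of 14 endothelial markers was 6.88 on DKO 2, against 7.31 and 7.39 on the other DKO arrays and 7.38 to 7.54 on the controls, and the erythroid mean was 8.40 on DKO 2, 9.28 and 9.27 on the other DKO arrays and 9.13 to 9.17 on the controls. Of the 10 genes studied here, 7 had their lowest DKO value on DKO 2 and 0 had their highest there, so values without that array are given where they differ.

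**Figure D1:**
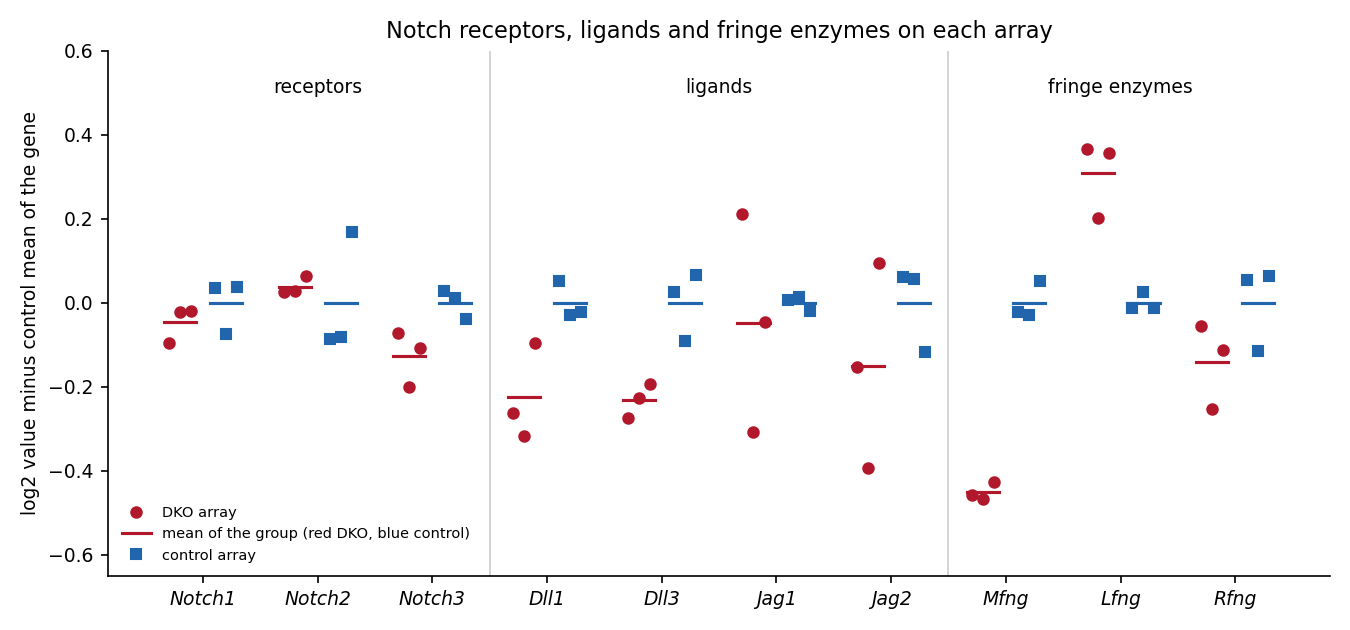
Log2 value of each gene on each of the 3 DKO arrays (red circles, left) and 3 control arrays (blue squares, right), with the gene's control mean taken off; short bars are the group means. The DKO and control arrays of Mfng and Lfng lie well apart and on opposite sides, Notch3, Dll1 and Dll3 have small gaps, and the other 5 genes overlap.

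Among the fringe enzymes, Mfng fell, Lfng was higher on every DKO array without passing the test, and Rfng overlapped between the groups. Mfng, manic fringe, had log2 values of 8.64, 8.63 and 8.67 in DKO cortex, against 9.07, 9.07 and 9.15 in control cortex. The groups were clearly apart, DKO below control, with a gap of 0.40 between them, which is many times the SD of 0.02 in DKO and 0.05 in control. Its log2 fold change was -0.45 ± 0.06 (SE), with a limma adjusted p of 0.00726, so that the signal fell by 26.8% in DKO. The decrease ranked 104 by p among the 16724 genes, and 2.02% of them had a larger change in either direction. The call held whichever array was removed, with values from -0.47 to -0.42 and adjusted p values from 0.0207 to 0.0409. An exact two-sided permutation test over the arrays gave p = 0.1, the smallest p that 3 arrays against 3 allow.

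Lfng, lunatic fringe, which in the mouse is the fringe gene of the segmentation clock and is also made in neural progenitors, had log2 values of 9.59, 9.43 and 9.58 in DKO cortex, against 9.22, 9.26 and 9.22 in control cortex. The DKO arrays all lay above the control arrays, with a gap of 0.18, and DKO 2 was the lowest of the 3. On the log2 scale the difference was 0.31 ± 0.07 (SE), a signal 23.8% higher, but the limma adjusted p over all genes was 0.0687. Its 95% interval ran from 0.15 to 0.46. Lfng passed the threshold without DKO 2, with a log2 fold change of 0.36 and an adjusted p of 0.0397, with a trended variance (0.0202) and with a stricter filter on dim genes (0.0373), and its adjusted p reached 0.230 without control 1. It is therefore reported as higher on every DKO array and not as a called increase.

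Rfng, radical fringe, the fringe gene with the widest expression in the mouse, had log2 values of 7.37, 7.17 and 7.31 in DKO cortex, against 7.48, 7.31 and 7.49 in control cortex. The groups overlapped, and DKO 2 and control 2 were the lowest of their groups. For Rfng the difference was -0.14 ± 0.08 (SE) on the log2 scale, with a 95% interval from -0.32 to 0.04 and an adjusted p of 0.451 by limma, and without DKO 2 the value was -0.0845.

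The balance between the fringe genes was taken within each array, and only its change between the groups was read. The within-array difference itself sets 1 probe set against another, so it does not tell which gene is more abundant. The within-array log2 difference of Mfng minus Lfng was -0.96, -0.80 and -0.92 on the DKO arrays, against -0.14, -0.19 and -0.07 on the control arrays. It thus changed by -0.76 ± 0.06 (SE, n = 3 per group), well beyond the SD of 0.08 between DKO arrays and 0.06 between control arrays. Mfng minus Rfng changed by -0.31 ± 0.07 and Lfng minus Rfng by 0.45 ± 0.07, again with no overlap between groups. These were the only 3 of 12 pairs within the receptor, ligand and fringe classes whose groups did not overlap. For Mfng minus Lfng that outcome was fixed by the values of the single genes, which lay apart in opposite directions. The 3 pairs also share the same 3 genes, so they are no evidence beyond those values. Each had an exact two-sided permutation p of 0.1, the smallest possible, which is 0.4 after Benjamini-Hochberg adjustment over the 12 pairs. The Mfng minus Lfng change lay between -0.80 and -0.73 in the 9 other settings tried for it, which include the removal of each array.

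**Figure D2:**
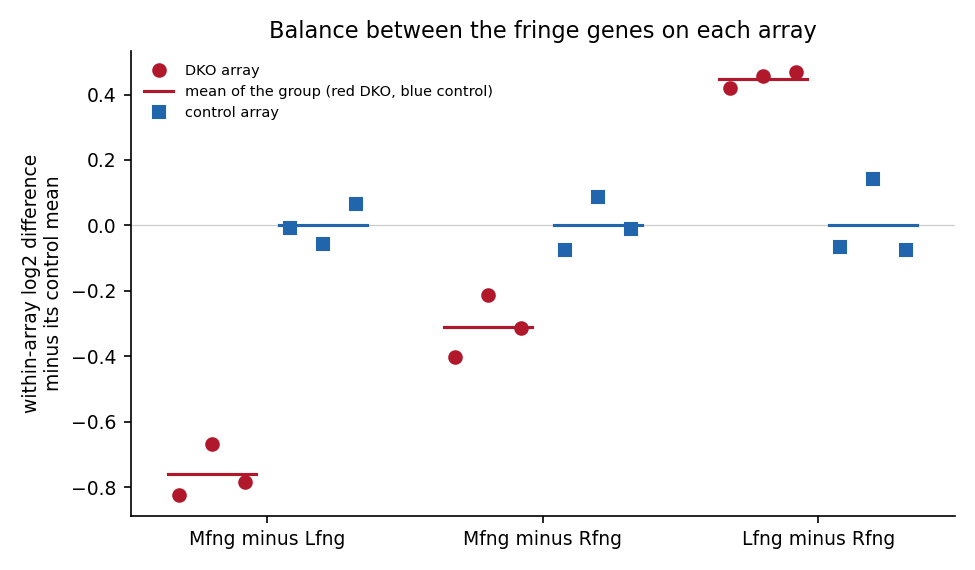
Within-array log2 difference between each pair of fringe genes on the 3 DKO arrays (red circles, left) and the 3 control arrays (blue squares, right), with the control mean of the pair taken off; short bars are group means. Mfng minus Lfng moved by -0.76, and in none of the 3 pairs do the groups overlap.

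Among the 4 ligands, Dll1 and Dll3 were lower on all DKO arrays and the Jagged genes were not. Dll4, the Delta-like ligand of vessel sprouting, named here beside them after its value was seen, overlapped between the groups and differed by -0.039 ± 0.064 (SE) on the log2 scale, with a limma adjusted p of 0.819. Dll1, the main activating ligand of cortical neurogenesis, had log2 values of 8.20, 8.15 and 8.37 in DKO cortex, against 8.52, 8.44 and 8.44 in control cortex. The groups were separated by 0.07, with DKO 3 nearest to the controls. The log2 fold change was -0.22 ± 0.07 (SE), with a limma adjusted p of 0.197 and an unadjusted p of 0.0152. Without DKO 2, where Dll1 had its lowest value, the log2 fold change was -0.18 (limma adjusted p 0.331). Among the 10 genes only Dll1 had a further row in the table, a dimmer one. That row read 6.26, 6.30 and 6.07 in DKO and 6.37, 6.44 and 6.36 in control, a difference of -0.18 in the same direction, again with no overlap.

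Dll3 had log2 values of 7.52, 7.57 and 7.60 in DKO cortex, against 7.82, 7.71 and 7.86 in control cortex. Every DKO array lay below every control array, with a gap of 0.10. The log2 fold change was -0.23 ± 0.07 (SE), a signal change of -14.9%, with a limma adjusted p of 0.143. Dll1 and Dll3 moved by nearly the same amount: the within-array difference Dll1 minus Dll3 changed by 0.0074 ± 0.070 (SE). Neither gene passed the threshold in any of the 13 other settings tried, where the adjusted p of Dll1 lay between 0.133 and 0.466 and that of Dll3 between 0.0886 and 0.370.

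Jag1, a Jagged ligand found on many cell types including vascular cells, had log2 values of 8.08, 7.56 and 7.82 in DKO cortex, against 7.87, 7.88 and 7.85 in control cortex. The DKO embryos scattered on both sides of tightly grouped controls, with an SD of 0.26 in DKO and 0.02 in control. The log2 fold change of -0.047 ± 0.12 (SE, adjusted p 0.885 by limma) turned to 0.083 without DKO 2, so no direction can be given. Jag2 had log2 values of 6.58, 6.34 and 6.82 in DKO cortex, against 6.79, 6.78 and 6.61 in control cortex. The groups overlapped, and DKO 3 held the highest value of all 6 arrays. Its log2 fold change was -0.15 ± 0.12 (SE, adjusted p 0.607 by limma), -0.029 without DKO 2 and -0.27 without DKO 3. None of the 6 pairs among the ligands had groups that did not overlap, so a difference in response between Delta-like and Jagged genes was not shown: Dll1 minus Jag1 changed by -0.18 ± 0.15 (SE), with an exact two-sided permutation p of 0.2.

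Receptor transcripts differed little. Notch1 had log2 values of 9.75, 9.82 and 9.82 in DKO cortex, against 9.88, 9.77 and 9.88 in control cortex. The groups overlapped, and the difference on the log2 scale was -0.047 ± 0.064 (SE), with a 95% interval from -0.19 to 0.10 and a limma adjusted p of 0.779. Notch2 had log2 values of 9.27, 9.27 and 9.30 in DKO cortex, against 9.15, 9.16 and 9.41 in control cortex. The DKO arrays lay between the controls, and the log2 fold change of 0.039 ± 0.081 (SE, adjusted p 0.861 by limma) had a 95% interval from -0.15 to 0.22 and turned to -0.0051 without control 1 and -0.0019 without control 2.

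Notch3, which mural cells of blood vessels express as well as neural progenitors, had log2 values of 8.23, 8.11 and 8.20 in DKO cortex, against 8.34, 8.32 and 8.27 in control cortex. The groups were separated by 0.04, and DKO 2 was lowest. The difference for Notch3 was -0.13 ± 0.06 (SE) on the log2 scale (adjusted p 0.383 by limma), and -0.091 without DKO 2. None of the 3 receptor pairs had groups that did not overlap, and the largest change of a within-array difference, that of Notch2 minus Notch3, was 0.17 ± 0.11 (SE).

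**Figure D3:**
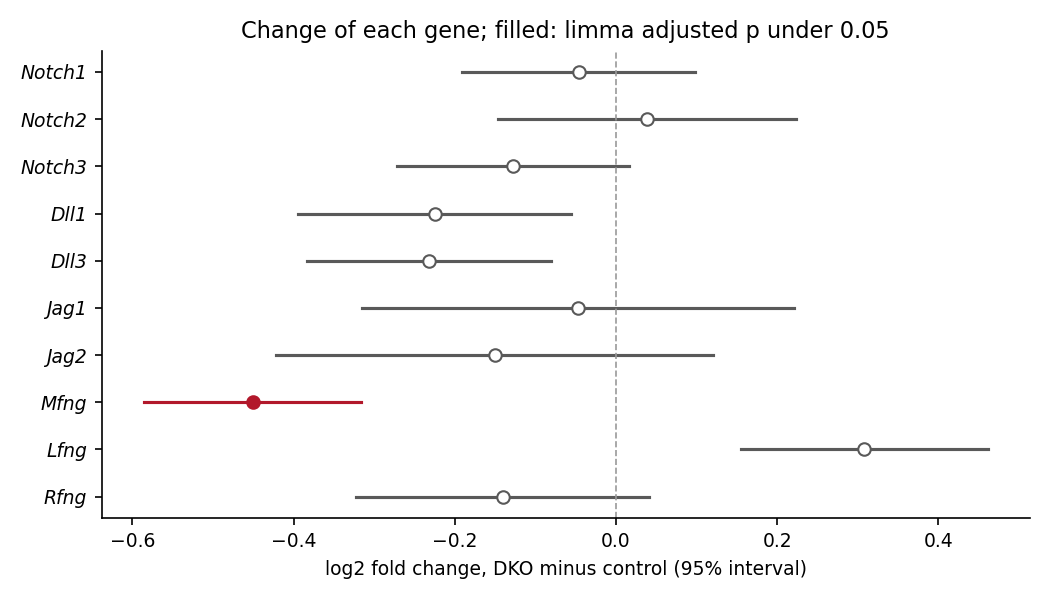
Log2 fold change, DKO minus control, of each gene with its 95% interval from the limma fit over all genes (3 arrays per group). Mfng at -0.45 is the only filled point, having passed the threshold over all genes, and the intervals of Dll1, Dll3 and Lfng leave out 0 before adjustment.

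Of the 10 genes, 8 had a lower mean in DKO, where 60.2% of all genes tested had one. The groups did not overlap for 5 of the 10, namely Mfng, Dll1, Dll3 and Notch3 with lower and Lfng with higher DKO values, where 21.6% of all genes tested did not overlap, 13.4% with lower and 8.22% with higher DKO values. The median log2 fold change of the 10 was -0.13, beside -0.028 over all genes tested. These counts describe the chosen genes and were given no test.

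Cell type markers moved on the same arrays. The proneural and intermediate progenitor list marks cells that make Delta-like ligands. Of its 12 measured genes, all 12 had a lower mean in DKO, with a median log2 fold change of -0.43, 2 fell and 0 rose. All 12 stood at an unadjusted p under 0.05. The genes past the threshold were Gadd45g and Btg2, a growth arrest gene and an antiproliferative gene, which kept their calls in 2 and in 0 of the 6 fits with 1 array removed. The mean log2 value of that list lay between 7.75 and 7.94 in DKO and between 8.18 and 8.48 in control. Neurog1 and Neurog2, proneural factors that activate Dll1 and chosen after their values were seen, had log2 fold changes of -0.56 ± 0.12 and -0.43 ± 0.11 (SE, limma adjusted p 0.0694 and 0.120). Of 11 neuron markers 10 had a lower mean, with a median of -0.19 and 0 calls by limma (7 lower at an unadjusted p under 0.05, Nhlh1 with the smallest), and their mean log2 value lay between 9.67 and 9.80 in DKO and between 9.88 and 10.04 in control. All of the markers in these 2 lists that were measured lay above the limit for dim genes. The part of these markers in the values of Mfng, Dll1 and Dll3 was not tested. In a bulk sample, fewer cells of a type and less RNA per cell cannot be told apart.

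Apical progenitor markers went both ways. Of 10 measured genes 4 had a lower and 6 a higher mean in DKO, with a median log2 fold change of 0.036, and 3 stood lower and 4 higher at an unadjusted p under 0.05. The 3 lower ones, named after their values were seen, were Sox1 at -0.23, Emx2 at -0.18 and Lhx2 at -0.17, none past the threshold. Of the list, Hmga2, a chromatin protein of early progenitors, and Slc1a3, a glial glutamate transporter, rose, and they kept their calls in 2 and in 0 of the 6 fits with 1 array removed. All 14 endothelial markers had a lower mean in DKO, with a median of -0.23, 0 calls by limma (4 at an unadjusted p under 0.05, Cldn5, the tight junction claudin of vessels, with the smallest), and their mean log2 value lay between 6.88 and 7.39 in DKO and between 7.38 and 7.54 in control. All 14 lay above the limit for dim genes. Of 9 pericyte and smooth muscle markers, a list that holds Notch3 itself, 7 had a lower mean, and the mean log2 value ran from 6.76 on DKO 2 to 7.35 on DKO 1, against 7.13 to 7.24 in control. Jag1 followed the same order over the DKO arrays, lowest on DKO 2 and highest on DKO 1, which was seen after the values were known. The meningeal mean had that order too, at 7.82, 6.92 and 7.41 on DKO 1 to 3, and so had the erythroid mean, at 9.28, 8.40 and 9.27. The endothelial and microglial means were highest on DKO 3. An order of only 3 arrays can match by chance. Among the controls the order differed: Jag1 was highest on control 2, at 7.88, where the pericyte and smooth muscle mean was lowest, at 7.13. The part of vascular cells in the values of Jag1, Jag2 and Notch3 was not tested. Among 14 hem and choroid plexus markers 12 had a higher mean, with a median log2 fold change of 0.39, 9 stood higher at an unadjusted p under 0.05 and 2 rose, Lmx1a, a roof plate and hem factor, and Ttr, the transthyretin of the choroid plexus. With 1 array removed, the count that rose ran from 0 to 3. Lmx1a lost its call without control 1, control 3 or DKO 1, and Ttr lost it without any 1 of the controls and without DKO 1. Microglial, erythroid and meningeal markers held 0 calls by limma among 8, 4 and 7 genes, with 1, 0 and 1 at an unadjusted p under 0.05.

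The rest of the Notch pathway was read from lists of named genes. Over all genes tested, 1.72% passed the threshold and 15.6% stood at an unadjusted limma p under 0.05. The 49 measured genes for other ligands and receptors, receptor glycosylation, cleavage, ubiquitination and trafficking, the nuclear complex and corepressors lay near those shares. Their median log2 fold change was -0.061, and 6 stood lower and 2 higher at an unadjusted limma p under 0.05. By the limma threshold 1 rose, 0 fell and 48 did not pass. The exception was Cntn6, a contactin reported as a non-canonical Notch ligand in the mouse, whose log2 values were 6.56, 6.30 and 6.70 in DKO and 5.05, 4.87 and 4.56 in control, around or under the 5.02 below which genes counted as dim, so the size of its change is uncertain. Rbpj itself, picked with its value known, differed by -0.056 ± 0.080 (SE) on the log2 scale. The smallest p in the other lists were those of Dtx4, a Deltex ubiquitin ligase, at 0.36 ± 0.07 (SE, adjusted p 0.0526), Tle3, a Groucho corepressor, at -0.33 ± 0.08, Psen2, a catalytic subunit of gamma-secretase, at -0.28 ± 0.08, Maml2, a Mastermind coactivator, at -0.21 ± 0.06, and Poglut1, an O-glucosyltransferase of Notch, at -0.09 ± 0.08, none of them past the threshold. In other settings Dtx4 passed in 1 of 6 fits with 1 array removed and in 3 of 7 further ones, and Tle3 in 0 and 1. Psen2, Maml2 and Poglut1 passed in 0. Dtx1, another Deltex gene and chosen after its value was seen, had -0.30 ± 0.07 (SE, adjusted p 0.0838).

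Among 14 measured genes known as Notch targets or close to them, 4 fell, 0 rose and 10 did not pass, where 0.359% of all genes tested fell. These were Hes5, Hey1, Nrarp and Hes6. Hes5 and Hey1 are repressors induced by Notch, Nrarp is a feedback inhibitor that binds the Notch complex, and Hes6 is a neurogenic gene that opposes Hes1 and is not a typical target. Hey1 had log2 values of 9.98, 9.95 and 9.99 in DKO, against 10.42, 10.37 and 10.49 in control, and Nrarp of 8.34, 8.42 and 8.47 in DKO, against 8.84, 8.85 and 8.91 in control. Their log2 fold changes were -0.45 ± 0.06 and -0.45 ± 0.06 (SE), with limma adjusted p values of 0.00820 and 0.00982. Hes5 changed by -0.90 ± 0.09 (SE, limma adjusted p 0.00197). With the mean of all its rows in place of the brightest, the change of Hes5 was smaller, at -0.59 (limma adjusted p 0.00467). With 1 array removed, Nrarp lost its call without control 3 (adjusted p 0.0539), Hes6 lost it in all 6 fits, and Hes5 and Hey1 lost it in 0. Hes1, chosen after its value was seen, ran the other way, at 9.05, 8.71 and 8.94 in DKO against 8.44, 8.51 and 8.65 in control, a difference of 0.37 ± 0.10 (SE) on the log2 scale (adjusted p 0.121). Over the 14 genes the median was -0.087.

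**Figure D4:**
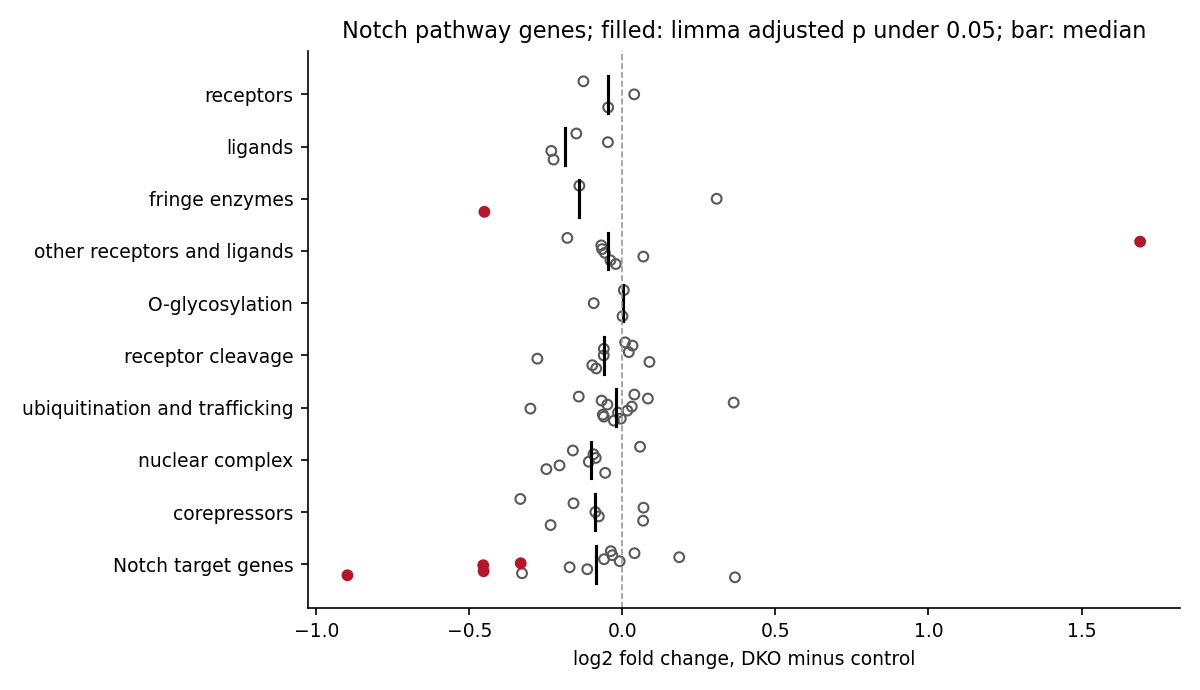
Log2 fold change, DKO minus control, of each measured gene by its role in the Notch pathway; filled red points passed the limma threshold over all genes, open points did not, and bars are medians. Mfng, 4 genes of the target list and Cntn6 are filled, while the medians of the 10 lists run from -0.19 for the ligands to about 0 for O-glycosylation.

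Mfng had the smallest p of the 10 genes, and the genes with the most similar values over the 6 arrays were searched among all genes tested. Likeness was the root mean square difference of log2 values after each gene's own mean was taken off, and its median over all genes was 0.23. The 5 closest genes were Hey1 at 0.016, Nrarp at 0.032, Ago1, an Argonaute protein of microRNA silencing, at 0.043, Tmem44, a membrane protein, at 0.044 and AW047730, a transcript with no described role here, at 0.046. All 5 fell in DKO, by 0.39 to 0.45 on the log2 scale, which follows from a search for genes with the size and direction of the Mfng difference. With 1 array removed, Ago1 lost its call in all 6 fits, Tmem44 in 3 (without control 1, control 3 or DKO 3) and AW047730 in 2 (without control 1 or DKO 1). On this centred scale the largest gap between Hey1 and Mfng on any array was 0.024. The 6 arrays share the 2 genotypes, so the likeness is mostly that of a step between the groups.

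**Figure D5:**
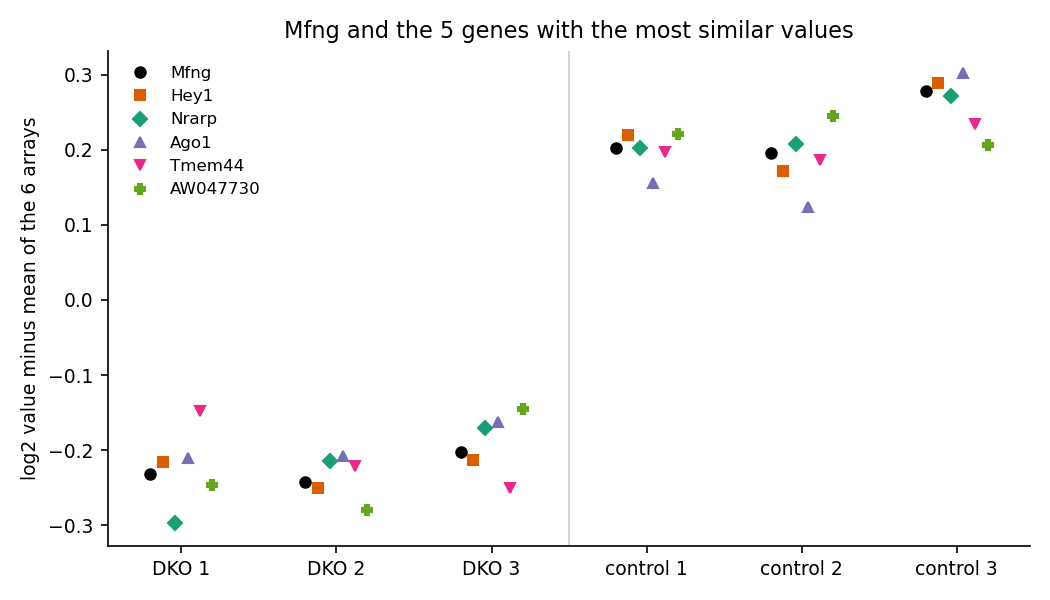
Log2 value, with the gene's mean over the 6 arrays taken off, of Mfng and the 5 genes most like it on the DKO arrays (left) and the control arrays (right). All 6 genes sit below 0 on the DKO arrays and above 0 on the control arrays, and Hey1 lies closest to Mfng.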

How the data were processed

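Total RNA of 6 mouse cortices was profiled on 1 Affymetrix whole-transcript array each, 3 DKO and 3 control. The authors deposited log2 values that they made with RMA (background correction, quantile normalization between arrays, probe summary) per the submitters' processing notes; neither its version nor the genome build of the probes is given in the sources used here. Such values hide any change common to all transcripts. Scanner files were not used here, so signal over background is unknown; the number of arrays limits the precision.

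Rows were named through the platform annotation, which gave 23521 rows exactly 1 symbol, and the gene identifiers of all 10 members matched those of RefSeq GRCm38.p6. Genes under the 25th percentile of row means, a log2 value of 5.02, were left out. DKO and control were compared with limma 3.58.1 in R 4.3.3 (lmFit, eBayes, two-sided, no covariate), with Benjamini-Hochberg adjustment over all genes tested and a threshold of 0.05. The scripts were tested on simulated data. Arrays correlated at Pearson r of 0.978 to 0.994 over all rows, and none was a copy of another. Genes named besides the members were those of each list that passed the test, or else the one with the smallest p, and the 5 genes most like the member with the smallest p, and others are marked where they appear. The members and lists were chosen with earlier results of these data known. Alternatives were no filter, a 50th percentile filter, repeated quantile normalization, median centring, a trended variance, the mean of a gene's rows, the replicate number as a block, and leaving out each array.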

Additional observations from a re-analysis of the deposited data

How the results depend on the processing

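Of the 10 genes, Mfng was the only one called throughout: it fell in all 13 other settings, and the count of these genes that fell stayed at 1. The count that rose was 1 in place of 0 with a 50th percentile filter, a trended variance and without DKO 2, each time through Lfng, whose log2 fold change and adjusted p were 0.31 and 0.0373, 0.31 and 0.0202, and 0.36 and 0.0397. Leaving out 1 array gave 0 to 1 increase among the 10, and log2 fold changes of Lfng from 0.28 to 0.36, of Notch1 from -0.083 to -0.021, of Jag2 from -0.27 to -0.029, of Notch2 from -0.0051 to 0.12 and of Jag1 from -0.18 to 0.083. The sign of Notch2 turned without control 1 (-0.0051) and without control 2 (-0.0019), and that of Jag1 turned to 0.083 without DKO 2, none of them called. The other 6 genes kept their sign and stayed uncalled in all 13 settings. Over all genes, the 60 decreases became 134 with a 50th percentile filter, 162 with a trended variance and 24 with the replicate number as a block. Leaving out 1 array gave 11 to 55 decreases and 122 to 260 increases, where the main fit had 228 increases. The count of 260 was that without DKO 2. Fits with 1 array left out have fewer samples, and the causes of these shifts were not tested. Replicate numbers were not shown to pair embryos: the deviations of same-numbered arrays correlated at -0.10, 0.21 and 0.15, and with the block Mfng kept its call. Over the settings tried for them, the 3 fringe differences kept their sign. Among the uncalled ligand differences the sign turned for Dll1 minus Dll3 (-0.038 to 0.055), Dll3 minus Jag2 (-0.21 to 0.021) and Jag1 minus Jag2 (-0.028 to 0.22), each time with 1 array removed. Signal over background could not be examined without detection calls.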
